A study of Cardamine hirsuta with 24 samples.

Results

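The genes described here are 200 genes of *Cardamine hirsuta*, a relative of *Arabidopsis thaliana* with leaves divided into leaflets. Their mean transcript levels rose with every step of an 8 h mock treatment. They were chosen out of 29458 genes on CPM, the count of a gene scaled to the same total of counts on genes in every library. A gene had to average at least 2 CPM over the 24 libraries, which 18306 genes did, and its mean log2(CPM + 1) in Mock had to increase at each step between 2, 4, 6 and 8 h and by at least 1 in all. There were 634 genes that met these conditions, and the 200 with the largest Mock increase were taken. The member with the smallest increase, CARHR014220, stood at 1.59 on this scale, and the first gene outside, CARHR258720, also stood at 1.59. The rule used means of 3 libraries. Within single Mock replicates 126, 151 and 127 members rose at every step (replicates 1, 2 and 3). The Mock values chose the genes, so their rise in Mock is a description and was not tested. The Dex libraries took no part in the choice other than through the mean of 2 CPM.

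All 24 pools came from 12 day old seedlings of the Oxford accession that carried the transgene *RCOp::LhG4:GR; Op::ChCUC1:Venus*, in which an activator under the *RCO* promoter, active at the base of leaf margins, switches on a fusion of the transcription factor ChCUC1 once dexamethasone lets it into the nucleus. Seedlings received 10 µM dexamethasone (Dex) or 0.1% DMSO (Mock) and shoot apices were collected after 2, 4, 6 or 8 h, with 3 pools of 20 seedlings in each of the 8 groups. Control seedlings therefore carry the transgene too, and each time has its own Dex and Mock pools. No group was left untreated, so hours of treatment, hours in the solution and hour of the day cannot be told apart, and in whole apices more cells of a type and more RNA per cell cannot be told apart either.

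Plant cells that are handled, wounded or immersed change large sets of transcripts within hours. Among the best known are genes for sugar breakdown and fermentation, which make ATP where oxygen runs short, chaperones of the endoplasmic reticulum, which fold secreted proteins, enzymes that conjugate and export foreign or oxidised compounds, and defence genes that answer microbial or damage signals. Other transcripts follow the circadian clock, which sets the hour at which each is high.

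Counts on genes ran from 12850309 to 22956929 per library. The *ChCUC1* gene model, on which transgene and endogenous transcripts cannot be separated, had 6.25 to 11.4 CPM in the 12 Dex libraries and 0.643 to 4.62 CPM in the 12 Mock libraries, so no library went against its label. Of 14 paired root hair markers, 0 were members and 12 were at 0 in at least 1 library, and all 13 that were tested were called lower in Dex at 8 h than at 2 h. Their summed level was 6.23 to 15 CPM in Dex at 8 h and 48.7 to 391 CPM in Dex at 2 h, and it was 6.90 to 7.13 CPM in Mock at 8 h and 4.46 to 91.3 CPM in Mock at 2 h. The 8 paired markers of the shoot apex and young leaf were above 0 in every library, with sums of 118 to 193 CPM in Dex at 4 to 8 h and 73.8 to 125 CPM in Mock at the same times. The 16 paired photosynthesis genes summed to 28946 to 37233 CPM in Dex at 8 h and 53304 to 66359 CPM in Dex at 2 h, and to 24220 to 25722 CPM in Mock at 8 h and 49612 to 56153 CPM in Mock at 2 h. The 9 paired seed maturation markers, 1 of them a member (*ABI5*), summed to 8.15 to 13.6 CPM in Dex at 8 h and 21.4 to 53.8 CPM in Dex at 2 h, and to 14.1 to 17 CPM in Mock at 8 h and 5.59 to 10.3 CPM in Mock at 2 h. The rule chose *ABI5* for its Mock rise, so nothing is read from the increase of this sum in Mock. The median log2 fold change of the tested seed maturation markers in Mock, 8 h over 2 h, was -1.53. In Dex the root hair and photosynthesis markers thus changed with time in the direction opposite to the members, and their part in the members' rise was not tested.

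The gene names that follow come from the identifier pairs in the study's own tables, which exist for 4021 genes. They cover 100 of the 200 members, against 2983 of the 18306 genes above 2 CPM (16.3%), and 80 of these 100 were paired only because the study had listed them as changed by Dex in these libraries. A named member is therefore more often one that differed between Dex and Mock. At 4 h the median difference of Dex from Mock was -1.15 (log2(CPM + 1)) over members with a pair and -0.41 over the 100 members without one. Roles are those known in *A. thaliana*. Lists of pathway and marker genes also keep only genes with a pair, so their totals carry the same selection. Pairs exist for 8 of 21 written hypoxia genes, 26 of 28 heat shock genes and 29 of 45 WRKY and defence genes. They exist for 20 of 43 genes of DNA replication and cell cycle.

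Most of the 200 members also rose with time in Dex. In the comparison of Dex at 8 h with Dex at 2 h, 142 members (71%) were called higher and 0 lower, where a call is an adjusted p under 0.05 in edgeR's quasi-likelihood test with a fold over 1.5. Over all 21689 genes tested, 1447 (6.67%) were called higher and 2331 (10.7%) lower. The fitted log2 fold change was above 0 for all 200 members. Its median was 1.82 (quartiles 1.35 and 2.56), against 0.03 over all genes tested. In a linear trend over the 4 Dex times, 158 members were called rising and 0 falling (7.28% and 10.9% of all genes tested), with a median slope of 0.31 log2 units per hour against 0.00 over all genes. Every Dex 8 h library lay above every Dex 2 h library for 181 members, which 23.9% of all genes tested also showed, and in 0 members did every Dex 8 h library lie below (16.9% of all genes tested). The count of calls moved with the libraries used, and so did the share over all genes tested. Without replicate 1 in every group 191 members were called higher (8.91% of all genes tested), without replicate 2 57 (2.37%), without replicate 3 45 (1.49%), and without the Dex 8 h library of replicate 2 alone 89 (4.94%). There were 43 members called in each of the 15 fits that were run, of which 8 had a pair and 35 had none. Calls in every fit were not counted over all genes tested. The fit with the fewest calls, without replicate 3, called 323 genes higher, 45 of them members.

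**Figure D1:**
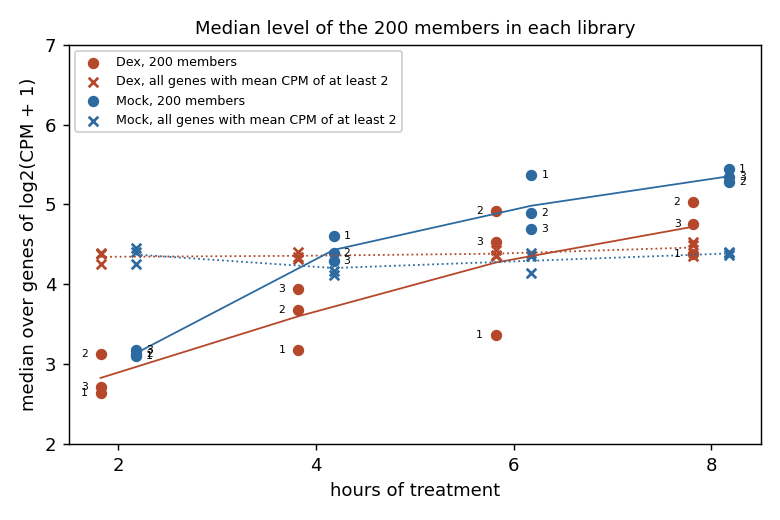
Median over genes of log2(CPM + 1) in each library against hours of treatment, for the 200 members (circles, numbered by replicate) and for all genes with a mean of at least 2 CPM (crosses), Dex to the left and Mock to the right of each time, with lines through the group means. The members stand at 4.38, 5.03 and 4.76 in the Dex 8 h libraries and at 2.64, 3.12 and 2.72 in the Dex 2 h libraries, while the crosses stay between 4.12 and 4.53.

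The median level of the members in a library shows how the Dex pools differed from each other. It was 2.64, 3.12 and 2.72 (log2(CPM + 1)) in Dex replicates 1, 2 and 3 at 2 h, 3.18, 3.68 and 3.94 at 4 h, 3.37, 4.92 and 4.52 at 6 h and 4.38, 5.03 and 4.76 at 8 h. In Mock it was 3.11, 3.13 and 3.18 at 2 h, 4.61, 4.40 and 4.29 at 4 h, 5.36, 4.89 and 4.70 at 6 h and 5.44, 5.28 and 5.34 at 8 h. Dex replicate 1 had the lowest median of its group at each time, and at 6 h it stood furthest from the others. It was the lowest of the 3 Dex libraries for 103, 137, 154 and 162 members at 2, 4, 6 and 8 h. Of the other genes above 2 CPM, this held for 19.9%, 35.4%, 32.3% and 28.6%. At 4 h the level in Dex replicate 1 was within or under the range of the Dex 2 h libraries for 105 members, beside 39 in replicate 2 and 27 in replicate 3. At 6 h this held for 103 members in replicate 1, 6 in replicate 2 and 12 in replicate 3, and at 8 h for 16, 4 and 3. Mock replicate 1 had the highest median of its group at 4, 6 and 8 h. It was the highest of 3 for 80 members at 2 h, 103 at 4 h, 121 at 6 h and 108 at 8 h. These counts against the 2 h range and in Mock were not made over the other genes.

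The members took up a growing share of all counts on genes. This share was 1.74%, 3.46% and 2.45% in the Dex 8 h libraries and 0.772%, 0.946% and 0.864% in the Dex 2 h libraries. In Mock it was 4.61%, 4.25% and 4.40% at 8 h and 1.11%, 0.973% and 1.03% at 2 h. Single members ranged widely in level, with means over the 24 libraries of 2.05 CPM for CARHR164440, a median of 20.9 CPM and 2101 CPM for CARHR017760, named *GST* and described as glutathione S-transferase TAU 24.

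The steps of the rise are given as a description. The rule used the Mock steps, and the low Dex replicate 1 enters the Dex steps. Nothing is therefore read from a difference between the treatments here. In Mock the first step was the largest for 163 members, with a median increase of 1.27 between 2 and 4 h, 0.43 between 4 and 6 h and 0.45 between 6 and 8 h. In Dex the first step was the largest for 104 members, and the median steps were 0.65, 0.52 and 0.41. The Dex means increased at every step for 173 members (86.5%), against 24.7% of the 18106 other genes above 2 CPM. Of the whole difference between 8 and 2 h, the median member had reached 42.0% at 4 h and 73.4% at 6 h in Dex, over the 176 members that rose by at least 1 there, and 58.7% at 4 h and 79.9% at 6 h in Mock, over all 200.

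**Figure D2:**
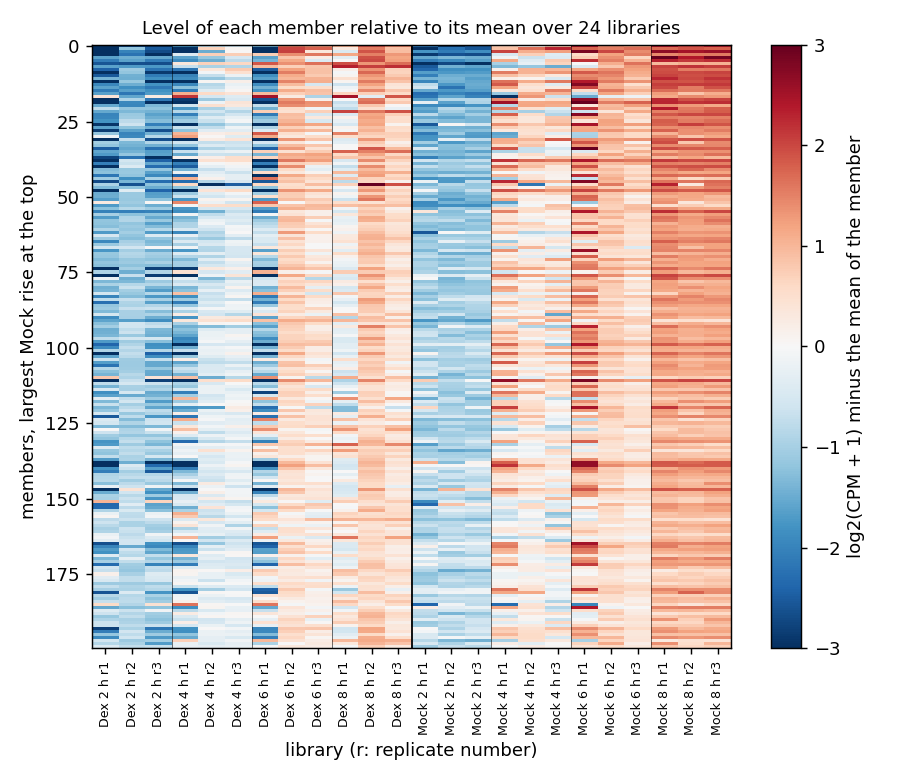
Each row is 1 of the 200 members and each column 1 library, Dex on the left and Mock on the right. Colour gives log2(CPM + 1) minus the mean of the member over the 24 libraries, from blue (3 units below) to red (3 units above). The Dex 4 h and 6 h columns of replicate 1 keep many blue rows, of which 103 are at or below the Dex 2 h range at 6 h.

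Levels in Dex were below those in Mock from 4 h on for most members. The median difference of Dex from Mock over members was -0.13 at 2 h, -0.85 at 4 h, -0.74 at 6 h and -0.86 at 8 h (log2(CPM + 1)), beside 0.04, 0.21, 0.13 and 0.09 over all genes above 2 CPM. Without replicate 1 these differences were -0.11, -0.58, -0.15 and -0.56. Every Dex library lay below every Mock library of the same time for 37 members at 2 h, 116 at 4 h, 28 at 6 h and 153 at 8 h, beside 13.3%, 7.91%, 3.55% and 16.9% of all genes tested. Every Dex library lay above for 16, 2, 2 and 9 members, beside 13.6%, 17.3%, 6.26% and 21.7% of all genes tested. The increase between 2 and 8 h was smaller in Dex than in Mock for 164 members, with a median of 1.59 in Dex and 2.05 in Mock. The rule took genes for a large Mock rise, so a smaller value in Dex is in part set by the choice, and nothing is read from these counts. The same holds for Mock at 8 h against 2 h, where 172 members were called higher beside 8.88% of all genes tested.

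**Figure D3:**
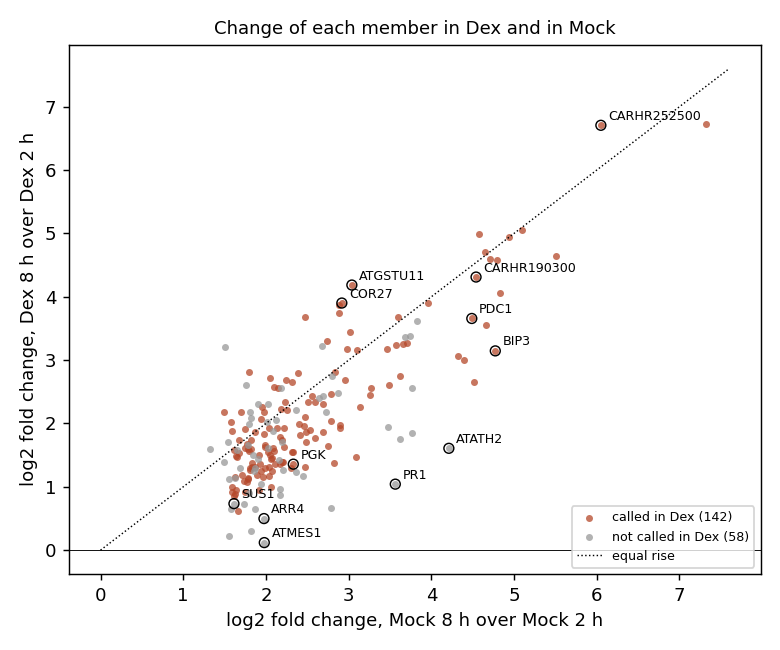
Log2 fold change of each member at 8 h over 2 h in Dex (vertical axis) against Mock (horizontal axis) from the edgeR fit, with the members called in Dex in red and the others in grey, and a dotted line of equal change. All 200 points lie above 0 on the vertical axis, the lowest at 0.12. The point furthest to the right is CARHR065730, whose few counts at 2 h do not allow a fold to be read.

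One set of members had a nearly equal course in all Dex libraries. *COR27*, a cold-regulated gene tied to the clock, had 1.94, 3.32 and 1.48 CPM in Dex at 2 h, 20.7, 21.9 and 28.2 at 4 h, 30.6, 40.0 and 41.2 at 6 h and 34.5, 34.8 and 37.6 at 8 h. Mock gave 3.90, 5.62 and 6.00 CPM at 2 h and 38.0, 44.5 and 38.4 at 8 h. *COR27* was close to its 8 h level by 6 h in all Dex libraries, replicate 1 included, and rose 14.9-fold in Dex (log2 fold change 3.90 ± 0.28 (SE), edgeR adjusted p = 1.13e-08). CARHR190300, which has no pair, had 2.76, 5.43 and 2.48 CPM in Dex at 2 h and 66.3, 84.4 and 73.4 at 8 h, beside 3.08, 3.88 and 3.70 CPM in Mock at 2 h and 81.0, 87.5 and 88.1 at 8 h. Its Dex groups at 2 and 8 h lay far apart, and in Dex it rose by 4.31 ± 0.40 (log2, SE; edgeR adjusted p = 4.19e-07).

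Neighbouring identifiers appeared among these steady members. CARHR096650, CARHR096660 and CARHR096670 stand next to each other in the gene order of the files, and rose in Dex by 4.60, 4.99 and 3.44 (log2). CARHR096650 climbed late, with 1.33, 1.20 and 1.18 CPM in Dex at 2 h, 3.41, 2.72 and 2.89 at 4 h, 12.9, 10.7 and 11.8 at 6 h and 34.9, 29.2 and 31.9 at 8 h. Its 3 Dex libraries were close to each other at each time, and most of its gain came after 4 h. In all, 24 members (12%) had another member in an adjacent row, in 11 runs of up to 3 genes, against 1.33% of the other genes above 2 CPM with a member beside them. The treatment of reads that match several copies was not given in the sources used here. Where such neighbours are near-identical copies, their counts may not be separate.

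The largest Mock rise in mean log2(CPM + 1) was that of CARHR252500, paired with AT4G05030, a putative copper transport protein. It had 0.153, 0.433 and 0.174 CPM in Dex at 2 h, 1.86, 4.67 and 5.49 at 4 h, 2.64, 28.7 and 24.3 at 6 h and 20.1, 37.6 and 27.6 at 8 h, beside 1.18, 0.298 and 0.600 CPM in Mock at 2 h and 54.0, 39.9 and 51.0 at 8 h. CARHR252500 rose in Dex by 6.71 ± 0.90 (log2, SE; edgeR adjusted p = 4.08e-05). The gene was close to 0 at 2 h in every library, so the size of this fold is uncertain. CARHR065730, the second member without a pair, had 0, 2 and 1 counts in the Dex 2 h libraries and 1.42, 10.4 and 5.88 CPM in Dex at 8 h, so that no fold is given for it.

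**Figure D4:**
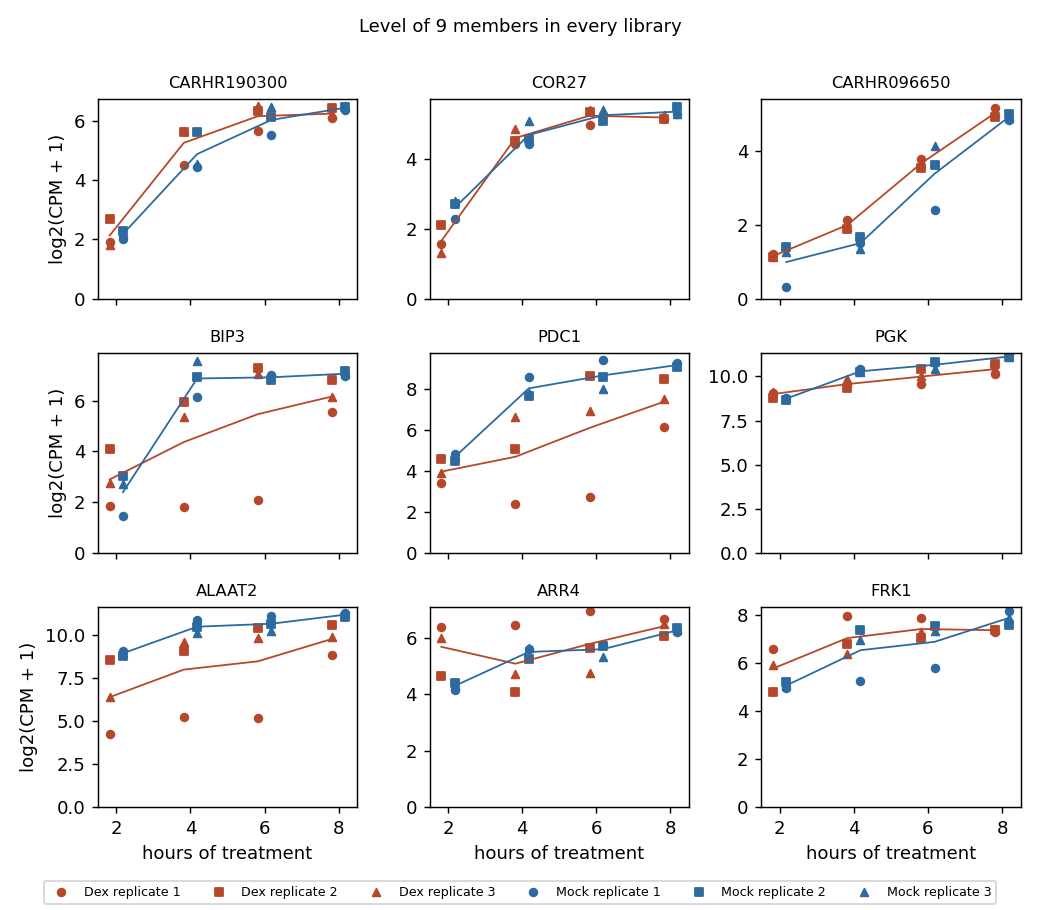
Level of 9 members, as log2(CPM + 1), in every library against hours of treatment, Dex in red to the left and Mock in blue to the right of each time, with a symbol for each replicate number and lines through the group means. The top row holds members with close Dex replicates, and the panels of *BIP3*, *PDC1* and *ALAAT2* show Dex replicate 1 apart from replicates 2 and 3 at 4 and 6 h.

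The annotated members were then grouped by role, a grouping drawn up after their values had been seen, so that counts within it describe these genes and no more. The first group holds 8 enzymes of sugar breakdown, fermentation and the linked amino acids, of which 6 were called higher in Dex at 8 h than at 2 h and 0 lower. They are sucrose synthase *SUS1*, the glycolytic enzymes aldolase (CARHR130760), *GAPC*, *PGK* and phosphoglycerate mutase (CARHR082890), pyruvate decarboxylase *PDC1*, which opens the path to ethanol, and the aminotransferases *ALAAT2* and *ASP2*. Their median log2 fold change was 1.37 in Dex and 2.13 in Mock.

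*PGK*, phosphoglycerate kinase, was the steadiest of them. It had 537, 447 and 557 CPM in Dex at 2 h, 721, 649 and 929 at 4 h, 751, 1362 and 1031 at 6 h and 1106, 1687 and 1363 at 8 h, beside 444, 403 and 437 CPM in Mock at 2 h and 2332, 2155 and 2227 at 8 h. No Dex 8 h value fell near the Dex 2 h values, and *PGK* rose 2.56-fold in Dex (log2 1.36 ± 0.25 SE, edgeR adjusted p = 0.000656), a call that held in all 15 fits. *GAPC* rose by 1.24 ± 0.39, aldolase by 1.92 ± 0.65 and phosphoglycerate mutase by 1.38 ± 0.39 in Dex (edgeR adjusted p = 0.0274, 0.0425 and 0.0158). These calls were lost in 7, 9 and 4 of the 14 alternative fits.

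*PDC1* had the widest spread of the group. It had 9.72, 23.1 and 14.0 CPM in Dex at 2 h, 4.21, 33.2 and 97.5 at 4 h, 5.73, 397 and 122 at 6 h and 70.0, 358 and 183 at 8 h. Mock gave 27.2, 21.7 and 25.5 CPM at 2 h, 390, 205 and 226 at 4 h, 678, 387 and 258 at 6 h and 618, 541 and 584 at 8 h. Replicate 1 had the lowest Dex value at each of the 4 times and the highest Mock value at 4, 6 and 8 h, and every Dex 8 h library lay above every Dex 2 h library. The rise in Dex was 12.6-fold (log2 3.66 ± 1.09 SE, edgeR adjusted p = 0.0227), and it was no longer called with the 12 Dex libraries alone, without the Dex 2 h library of replicate 1 or 3, without the Dex 8 h library of replicate 2 or without all of replicate 2 or 3. *ALAAT2*, which makes alanine out of pyruvate, behaved alike in replicate 1, with 17.5, 366 and 81.6 CPM in Dex at 2 h and 452, 1503 and 925 at 8 h, beside 521, 436 and 489 CPM in Mock at 2 h and 2396, 2103 and 2339 at 8 h. Its Dex values did not overlap between the times, yet the spread left it without a call (log2 2.56 ± 1.08 SE, edgeR adjusted p = 0.102).

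*SUS1*, which cleaves sucrose, did not follow. It had 44.2, 45.4 and 48.1 CPM in Dex at 2 h and 40.6, 123 and 74.6 at 8 h, beside 71.7, 74.3 and 81.1 CPM in Mock at 2 h and 251, 232 and 236 at 8 h. The Dex groups overlapped, with replicate 1 at 8 h below all of those at 2 h, and the gene was not called (log2 0.73 ± 0.66 SE, edgeR adjusted p = 0.461). *PDC1* and *SUS1* are the members on a list of 8 paired hypoxia genes, of which 1 was called higher in Dex at 8 h (*PDC1*) and 1 lower (*ACO1*, an ACC oxidase of ethylene synthesis), with a median of 0.45 (log2) against 0.03 over all genes tested. The list summed to 183 to 699 CPM in Dex at 8 h and 115 to 193 CPM in Dex at 2 h, and to 1018 to 1122 CPM in Mock at 8 h and 247 to 333 CPM in Mock at 2 h. These sums include *PDC1* and *SUS1*, which the rule chose for their Mock rise, so nothing is read from the increase in Mock.

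The second group holds 7 genes of the endoplasmic reticulum and vesicle traffic, of which 6 were called higher in Dex at 8 h. Its lead is *BIP3*, a luminal Hsp70 chaperone that is induced when unfolded proteins build up. *BIP3* had 2.61, 16.1 and 5.71 CPM in Dex at 2 h, 2.51, 60.5 and 40.0 at 4 h, 3.24, 155 and 131 at 6 h and 46.0, 111 and 69.6 at 8 h, beside 1.74, 7.16 and 5.50 CPM in Mock at 2 h, 69.9, 120 and 188 at 4 h, 128, 111 and 123 at 6 h and 124, 143 and 134 at 8 h. In Dex replicate 1 it left its 2 h level only at 8 h, while in replicates 2 and 3 it was highest at 6 h. The rise in Dex was 8.85-fold (log2 3.15 ± 1.05 SE, edgeR adjusted p = 0.0387), a call lost in 8 of the 14 alternative fits. In Mock the fitted value was 4.77.

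Partners of *BIP3* in protein folding and its control rose as well. *AERO1*, an oxidoreductin that renews disulphide bonds in the endoplasmic reticulum, rose by 1.62 ± 0.48, and the NAC factor *anac103*, which acts in the unfolded protein response of *A. thaliana*, by 1.87 ± 0.47 in Dex (edgeR adjusted p = 0.0212 and 0.00761). Coatomer subunit beta'-3 (CARHR091110), of the vesicle coat, rose by 1.64 ± 0.40, and *ARFA1D*, a small GTPase that recruits the coat, by 1.39 ± 0.39 (edgeR adjusted p = 0.00689 and 0.0145). *BIP3* was the 1 member on a list of 26 heat shock genes and the 1 gene of it called higher in Dex at 8 h, with 2 called lower and a median of -0.41 (log2). That list summed to 622 to 1069 CPM in Dex at 8 h and 222 to 1103 CPM in Dex at 2 h, and to 1443 to 1676 CPM in Mock at 8 h and 1364 to 3641 CPM in Mock at 2 h.

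Mitochondrial proteins gave 6 members, and 3 of them were called higher in Dex at 8 h. *NDB4*, an alternative NAD(P)H dehydrogenase of the inner membrane, was low throughout, with 0, 1.01 and 0.436 CPM in Dex at 2 h and 1.91, 6.50 and 3.97 at 8 h, beside 0.615, 0.398 and 0.350 CPM in Mock at 2 h and 11.2, 9.01 and 10.1 at 8 h. Its Dex groups at 2 and 8 h did not overlap, and it rose by 3.0 ± 0.82 in Dex (log2, SE; edgeR adjusted p = 0.0133). A SCO1 family protein (CARHR246980), of the kind that carries copper to cytochrome c oxidase, and a GrpE co-chaperone (CARHR268560), which resets mitochondrial Hsp70, rose by 1.87 ± 0.39 and 1.67 ± 0.44 (edgeR adjusted p = 0.00212 and 0.0108). The carriers *PHT3;2* for phosphate, *MTM1* and CARHR233710 were not called, at 1.99 ± 1.21, 1.30 ± 0.55 and 1.51 ± 0.62.

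Among 12 defence and receptor-like members, 9 were called higher in Dex at 8 h. *FRK1*, a receptor-like kinase used as a marker of the response to flagellin, had 95.8, 27.0 and 59.4 CPM in Dex at 2 h, 250, 109 and 82.0 at 4 h, 237, 133 and 158 at 6 h and 154, 168 and 172 at 8 h. In Mock it had 30.4, 35.6 and 31.9 CPM at 2 h, 37.4, 167 and 123 at 4 h, 54.1, 184 and 162 at 6 h and 285, 192 and 237 at 8 h. Here replicate 1 was high in Dex and low in Mock at 4 and 6 h, the reverse of *PDC1*, and all Dex 8 h values exceeded those at 2 h. The rise in Dex was 2.59-fold (log2 1.37 ± 0.48 SE, edgeR adjusted p = 0.0464). It was not called in 10 of the 14 alternative fits.

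Of 2 pathogenesis-related members, 1 was called in Dex. *PR5*, a thaumatin-like protein, had 4.19, 5.67 and 3.75 CPM in Dex at 2 h and 12.1, 34.8 and 23.1 at 8 h, and rose by 2.31 ± 0.41 (edgeR adjusted p = 0.000635), in all 15 fits. *PR1*, a marker of salicylic acid responses, had 1.28, 1.25 and 2.4 CPM in Dex at 2 h and 2.79, 4.95 and 3.06 at 8 h, and was not called (log2 1.04 ± 0.51 SE, edgeR adjusted p = 0.16), beside 0.718, 0.497 and 0.400 CPM in Mock at 2 h and 8.13, 5.21 and 6.72 at 8 h. The factor *WRKY8* rose by 2.23 ± 0.54, the secreted lipase *GLIP1* by 2.56 ± 0.63, the plasmodesmal protein *PDLP1* by 1.79 ± 0.29 and the chitin-binding *LYM2* by 1.55 ± 0.51 (edgeR adjusted p = 0.00634, 0.00722, 0.000262 and 0.037). On the list of 29 WRKY and defence genes tested, the 3 called higher in Dex at 8 h were *FRK1*, *PR5* and *WRKY8*, all members, and 0 were called lower, with a list median of 0.70 (log2).

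**Figure D5:**
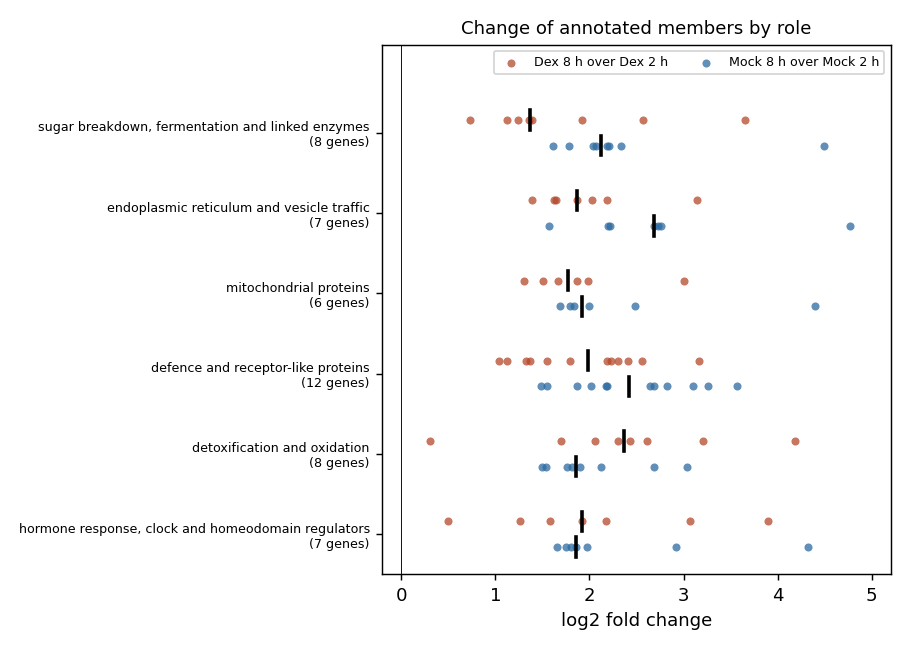
Log2 fold change at 8 h over 2 h of the members in 6 role groups, Dex above and Mock below in each, with a black bar at the median of each row. The medians in Dex run from 1.37 for sugar breakdown to 2.37 for detoxification.

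Detoxification and oxidation gave 8 members, with the largest median change in Dex of the 6 groups (log2 2.37, against 1.86 in Mock) but only 1 call. *ATGSTU11*, a tau class glutathione S-transferase, had the largest change of the group. It had 0.256, 9.04 and 1.87 CPM in Dex at 2 h, 0.602, 34.0 and 49.8 at 4 h, 0.349, 113 and 98.9 at 6 h and 22.8, 123 and 65.3 at 8 h, beside 31.0, 11.7 and 19.2 CPM in Mock at 2 h and 186, 174 and 180 at 8 h. Dex replicate 1 was far below the other 2 until 6 h, and the rise of 4.19 ± 1.44 (log2, SE) was called at an edgeR adjusted p of 0.0449. That call was lost in 9 of the 14 alternative fits. The drug efflux carrier *ATDTX1*, the cytochrome P450 *CYP72A8* and the glutathione S-transferase *GST* had the same low replicate 1, with 3.43, 1.64 and 113 CPM in that Dex library at 2 h, and were not called (2.44 ± 1.37, 2.61 ± 1.51 and 2.30 ± 0.99). In this group the median difference of Dex from Mock was already -1.96 at 2 h, where it was -0.46 in the sugar group.

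The regulators of hormone response, clock and epidermis gave 7 members and 3 calls in Dex, *COR27*, *HDG7* and *GH3.3*. *HDG7*, a homeodomain factor of the class that acts in the epidermis, rose by 3.07 ± 0.89, and *GH3.3*, which couples auxin to amino acids, by 1.92 ± 0.57 (edgeR adjusted p = 0.0194 and 0.022). Its relative *GH3.2*, the dehydration-responsive element-binding factor *DREB19* and *ABI5*, a bZIP factor of abscisic acid signalling, were not called, at 1.58 ± 0.79, 2.18 ± 1.01 and 1.26 ± 0.61. Of 18 paired auxin genes, 1 was called higher in Dex at 8 h (*GH3.3*) and 4 lower, with a median of -0.44 (log2). The relatives *GH3.1* (mean 0.375 CPM), *GH3.5* and *GH3.17* were called lower, at -3.16, -1.78 and -2.13. Of 5 paired clock genes, 2 were called higher (*COR27* and *BOA*) and 1 lower (*CDF5*). Of 15 paired cytokinin genes, 0 were called higher and 1 lower. *ARR4*, a type-A response regulator that damps cytokinin signalling, had 82.9, 24.1 and 62.8 CPM in Dex at 2 h, 86.0, 16 and 25.1 at 4 h, 122, 49.3 and 26.1 at 6 h and 101, 66.0 and 88.2 at 8 h, beside 16.7, 19.9 and 19.3 CPM in Mock at 2 h and 71.9, 80.0 and 75.6 at 8 h. Its Dex values overlapped between 2 and 8 h, and the change was 0.50 ± 0.50 (edgeR adjusted p = 0.513).

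The smallest Dex change of a member was that of *ATMES1*, an esterase that frees salicylic acid from its methyl ester. It had 10.8, 2.4 and 8.19 CPM in Dex at 2 h and 8.64, 7.19 and 8.79 at 8 h, beside 0.564, 3.68 and 2.55 CPM in Mock at 2 h and 9.25, 8.28 and 9.64 at 8 h. The 2 treatments were alike at 8 h and differed at 2 h, where Dex replicates 1 and 3 stood above every Mock library, and the change in Dex was 0.12 ± 0.41 (edgeR adjusted p = 0.869). *ATCHX16*, a cation/proton antiporter, was likewise higher in every Dex library than in every Mock library at 2 h, with 14.5, 5.19 and 12.2 CPM in Dex and 2.46, 3.88 and 3.50 CPM in Mock, reached 17.6, 16.3 and 19.7 CPM in Dex at 8 h, and was not called (0.66 ± 0.56). *ATATH2*, an ABC transporter, was low in Dex at both times, with 1.18, 0.625 and 0.610 CPM at 2 h and 1.20, 4.21 and 2.16 at 8 h, beside 18.3, 9.99 and 11.8 CPM in Mock at 8 h. Among all members, 42 were called neither in the comparison of 8 h with 2 h nor in the trend.

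Members outside these groups were called in Dex as well. The sliding clamp of DNA replication *PCNA1* rose by 1.76 ± 0.33, the D-aminoacyl-tRNA deacylase *GEK1* by 1.54 ± 0.35 and the subtilase *ATSBT3.5* by 2.35 ± 0.78 (edgeR adjusted p = 0.00096, 0.0035 and 0.0395). *PCNA1* was the only gene called higher among 20 paired genes of DNA replication and cell cycle, of which 0 were called lower. The median of that list in Dex was -0.17 (log2), and *PCNA2* on it also stood at -0.17. The F-box gene *ATPP2-B11* rose by 3.30 ± 0.99 and *SRO3*, of a family with a PARP-like domain, by 3.17 ± 1.11 (edgeR adjusted p = 0.0229 and 0.0477). The call of *SRO3* was lost in 9 of the 14 alternative fits, among them the 12 Dex libraries alone, no filter and the replicate block, and that of *ATPP2-B11* in 5. The last member inside the limit, CARHR014220, which has no pair, had 13.1, 10.3 and 10.8 CPM in Dex at 2 h and 17.1, 29.8 and 22.2 at 8 h, and rose by 0.95 ± 0.19 (edgeR adjusted p = 0.00153).

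Families were counted by words in the descriptions, which exist for 2300 of the genes tested, 97 of them members (4.22%). Glutathione S-transferases gave 3 members of 24, ribosomal and translation proteins 2 of 22, glycoside hydrolases 2 of 26, and chaperones 3 of 41, all 3 called higher in Dex (*BIP3*, CARHR210290 and CARHR268560). Protein kinases gave 6 of 148, 1 of which is *PGK* through its name and acts on a sugar phosphate, and transcription factors 3 of 170. There were 0 members among 42 structural cell wall glycoproteins, 24 xyloglucan enzymes and expansins, 48 glycosyltransferases and 23 seed storage and late embryogenesis proteins.

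Calls in Dex were spread over the ranking by Mock rise. Of members ranked 1 to 50, 39 were called higher in Dex at 8 h, then 37, 32 and 34 of each further 50. The 434 genes that met the conditions but ranked after the members had 259 calls (59.7%), a median increase of 0.93 in Dex and 1.18 in Mock (log2(CPM + 1)), and Dex means that increased at every step in 84.6%.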

How the data were processed

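RNA of 24 shoot apex pools was sequenced from directional poly(A) libraries. The deposited files hold whole-number read counts per gene, which the authors made with STAR 2.4.2a and HTSeq 0.5.4p1 (DESeq is also listed); genome build, annotation and strand setting were not given in the sources used here, and overlapping or antisense genes may share reads. The lines of reads without a gene (5.65% to 15.8% of reads) stayed out of library sizes. The labels do not say whether replicates came from separate experiments, so p-values measure the spread between these pools. Members were chosen on unscaled CPM, and 3 genes were left out by the rule. Counts of all 24 libraries were fitted with edgeR 4.0.16 (R 4.3.3; quasi-likelihood, robust, TMM, filterByExpr with a minimum count of 10; 21689 genes, all 200 members), with Benjamini-Hochberg adjustment over all genes, a fold limit of 1.5 (for the trend, the slope over 6 h) and two-sided tests. Errors beside log2 fold changes are SE worked back from that fit, with n = 3 libraries a group. Each is the absolute log2 fold change divided by the square root of the quasi-likelihood F statistic. It rests on a spread estimated over all 24 libraries and is not independent of the p-value. Named genes are members with a gene name in the study's tables: the 20 with the largest Mock rise, the 10 with the largest and 5 with the smallest change in Dex, every member on a written list, the last inside the limit and 2 without a pair (1 of these genes is not reported here); other names were chosen after their values were seen. The members and lists were chosen with earlier results of these data known. Alternatives were DESeq2 1.42.0, RLE scaling, no filter, a replicate block, Dex libraries alone, each library or replicate left out and other member lists.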

Additional observations from a re-analysis of the deposited data

How the results depend on the processing

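In the 14 alternative fits 0 members were called lower in Dex, and 197 of the 200 kept a fold change above 0 in each of them; the other 3 fell below 0 in fits without a Dex library of replicate 2 or without replicate 2. The count called higher was 161 with DESeq2 (5.88% of all genes tested), 140 with RLE scaling (6.21%), 132 without the filter (5.42%) and 99 with the 12 Dex libraries alone (5.62%). Leaving out libraries moved it between 45 and 191 of 200, and the count in the trend between 60 and 193. The share of all genes called higher moved between 1.49% and 8.91% in the same fits, and the share rising in the trend between 2.08% and 9.94%. All 634 genes that met the conditions gave 401 calls higher, 1 lower and 444 in the trend. Other member lists of 200 gave 135 to 145 calls, and 156 to 194 of the 200 members were kept under other settings of the rule. The median increase in Dex was 1.51 with TMM scaling and 1.55 to 1.72 without a replicate; chosen after seeing the data, it was 1.62 over members with a pair and 1.57 over those without. Of 34 named members, 23 were called, 13 of these with the Dex libraries alone and 4 without replicate 3. Calls were lost in 8 of the 14 fits for *ATSBT3.5* and *LYM2*, in 6 for *HDG7*, *GH3.3*, *AERO1* and CARHR268560, and in 5 for *ARFA1D* and *NDB4*. *ATMES1* ran from -0.29 to 0.48 when libraries were left out, reversed without the Dex 2 h library of replicate 2 (-0.29) and without replicate 2 (-0.25).

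Replicate numbers are shared between groups. Deviations of same-numbered Dex 2 h and 8 h libraries correlated at 0.62, 0.58 and 0.04, and those of unlike numbers at -0.61 to 0.22. In Mock the same-numbered values were 0.06, 0.07 and 0.03. Pairing by number was thus neither shown nor excluded. With a replicate block 138 members were called higher, 0 lower and 152 in the trend, beside 6.57%, 10.7% and 7.14% of all genes tested. The calls lost included those of *FRK1*, *ATGSTU11*, *SRO3* and CARHR130760.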
